A study of Mus musculus with 1279 samples.

Results

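Cluster 2 was 1 of the 5 fibroblast groups found in the adult mouse heart. Its members were the cells whose sample label gave the cluster as 2. They made up 17.1% of the 1279 cells of the series and 23.7% of the 926 cells in the fibroblast clusters 1 to 5, of which the remaining 707 belonged to the other 4 clusters. The study captured mesenchymal cells of the heart 1 at a time and sequenced them with Smart-seq2, a plate-based method that reads full-length cDNA and has no molecular identifiers. All mice were males of 10 to 20 weeks, and 4 strains were used. C57BL6 mice carried no reporter, and their cells had been sorted with antibodies against PDGF receptor alpha or beta. The reporter strains PdgfrbGFP, Cspg4dsRED and Acta2GFP marked cells that express Pdgfrb, Cspg4 or Acta2, so each of these sorts takes any cell in which the reporter is on and misses fibroblasts in which it is off. Cells with the endothelial surface protein CD31 had been excluded, and elastase was added when Acta2GFP hearts were dissociated. C57BL6 gave 65, 58 and 1 cells of cluster 2 on 3 plates, PdgfrbGFP gave 49 cells, Cspg4dsRED 8 and Acta2GFP 38, each on 1 plate. The comparison groups were cluster 1, with 70 cells, and clusters 3, 4 and 5, with 637 cells in all, from the same sorts and plates.

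Fibroblasts of the heart lie between muscle fibres, around vessels and in the valves, and they make and turn over the extracellular matrix. Part of that matrix is the basement membrane, a thin sheet beneath epithelia and endothelia and around muscle fibres and mural cells, which is built from networks of type IV collagen and laminin joined by nidogens and the proteoglycan perlecan. Interstitial matrix, in contrast, is dominated by fibrils of type I and III collagen, with elastic fibres, proteoglycans and adhesive proteins between them.

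Counts were summed over the cells of a strain on each side of a comparison, and the 4 strains served as replicates, because the labels name no animal. Strain, sort and plate cannot be told apart, and a spread over strains, or a standard error fitted from their sums, mixes animals and technique. The authors had clustered the cells on these same counts. Values that set cluster 2 apart from another cluster are therefore given as descriptions, without p-values, and a threshold passed says only how steadily a difference recurred over strains. Where groups are said not to overlap, this describes the named gene only. The share of all genes without overlap was not counted, and genes named for their size of difference had been chosen for differing in every strain. The weight of clusters 3 to 5 was not equal between strains. In Cspg4dsRED 13 of the 15 comparison cells belonged to cluster 4, whereas in PdgfrbGFP 63.6% belonged to cluster 5. The sums of cluster 2 ranged from 4065068 counts (Cspg4dsRED) to 39875241 counts (C57BL6). Levels are given as CPM, the counts of a sum scaled to a total of 1000000, which are not corrected for gene length, so they compare 1 gene between groups and not genes with each other.

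Cluster 2 cells had a median of 314829 counts per cell (range 52501 to 1060180) and 4402 detected genes. Relative to clusters 3 to 5, the mean log2 ratio of the medians was 0.13 ± 0.18 for total counts (SD, n = 4 strains, exact two-sided sign-flip permutation p = 0.25) and 0.05 ± 0.03 for detected genes (exact p = 0.125). The corresponding ratios were 0.02 ± 0.05 for genes detected after thinning every cell to 50000 counts (exact p = 0.625), 0.03 ± 0.16 for the share of ERCC spike-ins (exact p = 0.75) and -0.05 ± 0.10 for the mitochondrial share (exact p = 0.5). Adjusted over the 5 measures by the Benjamini-Hochberg method, these values lay at 0.625 or 0.75, and 4 strains cannot give a p below 0.125. With means per strain in place of medians, the ratio was -0.13 ± 0.05 for the mitochondrial share, lower in 4 of 4 strains, -0.14 ± 0.10 for the ERCC share, also lower in 4 of 4 strains, and 0.20 ± 0.16 for total counts, higher in 4 of 4 strains (exact p = 0.125 for each, the smallest possible). Their part in the differences between clusters was not tested.

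The label was read against marker genes. The authors had assigned fibroblast and mural clusters by established markers and had removed cells with neither Pdgfra nor Pdgfrb. They had also removed cells with endothelial or immune signatures. The sums below therefore describe the cluster and are not an independent check of its label. The sum of 5 fibroblast markers (Pdgfra, Dcn, Lum, Col1a1 and Col1a2) was 12450 CPM in cluster 2 (range 10700 to 14489 over 4 strains), against 1716 CPM in cluster 8 and 546 CPM in cluster 7, which are mural clusters. Of these 5 genes, 0 were higher and 0 were lower than in clusters 3 to 5 in all 4 strains, and their fitted differences lay within 0.13 of 0 on the log2 scale. The 5 mural markers summed to 135.8 CPM (range 60.04 to 295) against 9440 CPM in cluster 8, the 4 pericyte markers to 73.4 CPM (19.7 to 119.5) against 11077 CPM in cluster 8, and the 4 smooth muscle markers to 168.5 CPM (34.9 to 313) against 12725 CPM in cluster 7. The highest mural sum was that of Cspg4dsRED, and its part in the values of that strain was not tested. The 7 endothelial markers summed to 195.5 CPM (117.4 to 267.1), of which Tek, the receptor of the angiopoietins, contributed nearly all and Pecam1, the CD31 gene, 3.89 CPM. The 5 immune markers reached 21.5 CPM, the 9 cardiomyocyte markers 87.8 CPM and the 3 Schwann cell markers 1.02 CPM, and 5 of 6 epicardial markers were at 0. Cluster 2 was thus fibroblast by these markers, as were clusters 3 to 5.

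Of the 5 genes given as markers of cluster 2, 4 separated it from the other fibroblasts in every strain. Col4a1 and Col4a2 encode the alpha1 and alpha2 chains of type IV collagen, which assemble together into the common network of basement membranes. Col4a1 (chr8:11198423-11312826, minus strand, GRCm38) had 905, 750, 1171 and 904 CPM in cluster 2 against 400, 305, 353 and 389 CPM in clusters 3 to 5, in the order C57BL6, PdgfrbGFP, Cspg4dsRED and Acta2GFP. Col4a2 (chr8:11312805-11449287, plus strand) had 644, 375, 565 and 613 CPM against 233.2, 169.4, 215.6 and 242.8 CPM. For both genes every sum of cluster 2 lay above every sum of the other clusters. The edgeR log2 fold change was 1.39 ± 0.12 (SE, n = 4 strains) for Col4a1 and 1.37 ± 0.11 for Col4a2. Here and below, the SE of an edgeR fold change is its absolute value divided by the square root of the quasi-likelihood F statistic. That statistic uses a variance shared in part between genes, so the SE is not the spread of the strain differences.

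Col4a1 and Col4a2 lie head to head and are read in opposite directions from a common promoter. Their annotated first exons overlap by 22 bases, chr8:11312805-11312826 in GRCm38.p6, shown here because it is the only stretch in which a read could count for either gene when strand is not used.
Col4a1 and Col4a2 shared start, plus strand: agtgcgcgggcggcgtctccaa
The strand setting of the authors' counting is not given in the sources used here. Col4a1 spans 7464 and Col4a2 6619 exonic bases, so the shared stretch is a small part of either gene.

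Gfra1 encodes a cell-surface co-receptor for GDNF, and Gsta3 encodes a glutathione S-transferase. Gfra1 (chr19:58235604-58455909, minus strand) had 153.9, 196.7, 468 and 281.5 CPM in cluster 2 against 41.6, 47.1, 21.3 and 73.8 CPM in clusters 3 to 5 in the same order of strains, a log2 fold change of 2.56 ± 0.49. Gsta3 (chr1:21240589-21265661, plus strand) had 374, 297, 402 and 252.8 CPM against 135.9, 108.2, 132.98 and 76.95 CPM, a log2 fold change of 1.59 ± 0.14. Neither gene's groups overlapped. Pdgfra (chr5:75152292-75198215, plus strand), the PDGF receptor alpha gene that marks fibroblasts broadly, had 591, 482, 544 and 593 CPM against 473, 393, 594 and 638 CPM. It was higher in 2 strains and lower in 2, with a log2 fold change of 0.13 ± 0.13, so it marked cluster 2 as a fibroblast cluster but did not separate it from clusters 3 to 5.

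Col4a1 and Col4a2 were also higher in cluster 2 within both C57BL6 plates that held more than 1 of its cells. Plate heart_316s held 58 cells of cluster 2 and 0 cells of the mural clusters, and the mural markers there summed to 16.5 CPM in cluster 2, with 2 of 5 at 0. On that plate Col4a1 had 698 CPM in cluster 2 against 345 CPM in clusters 3 to 5, Col4a2 744 against 224.3 CPM, Gfra1 188.1 against 60.7 CPM and Gsta3 386 against 112.8 CPM. On plate heart_203s, with 65 cells of cluster 2 and 33 cells of cluster 8, Col4a1 had 1031 against 437 CPM and Col4a2 564 against 239.1 CPM. Cluster 8, which carried the pericyte markers, had 838 CPM Col4a1 and 488 CPM Col4a2. The part of RNA from such cells in the differences was not tested.

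The markers were next read in single cells, pooled over strains. After thinning to 50000 counts, at which 1 count is 20 CPM, Col4a1 was counted in 91.3% of cluster 2 cells, 73.2% of cluster 3, 79.8% of cluster 4, 71.9% of cluster 5 and 48.6% of cluster 1, with medians of 800, 140, 240, 100 and 0 CPM. Col4a2 was counted in 87.7% of cluster 2 cells and in 54.8% to 59.2% of the cells of clusters 3 to 5. Gsta3 was counted in 66.2% of cluster 2 cells and 40.4% of cluster 5 cells. Gfra1 was counted in 43.4% of cluster 2 cells, 18.5% of cluster 5, 14.2% of cluster 4 and 8.93% of cluster 3, where its mean over strains was 1.86 CPM. By strain, Gfra1 was counted, again after thinning, in 35.5% of cluster 2 cells of C57BL6, 38.8% of those of PdgfrbGFP, 63.2% of those of Acta2GFP and 8 of 8 of those of Cspg4dsRED. The median number of genes detected in thinned cluster 2 cells ranged from 2203 in PdgfrbGFP to 3985 in Acta2GFP, and the clusters held the strains in unequal shares, with 38 cells of Acta2GFP in cluster 2 and 2 in cluster 5. No order between clusters was therefore read from these pooled shares.

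**Figure D1:**
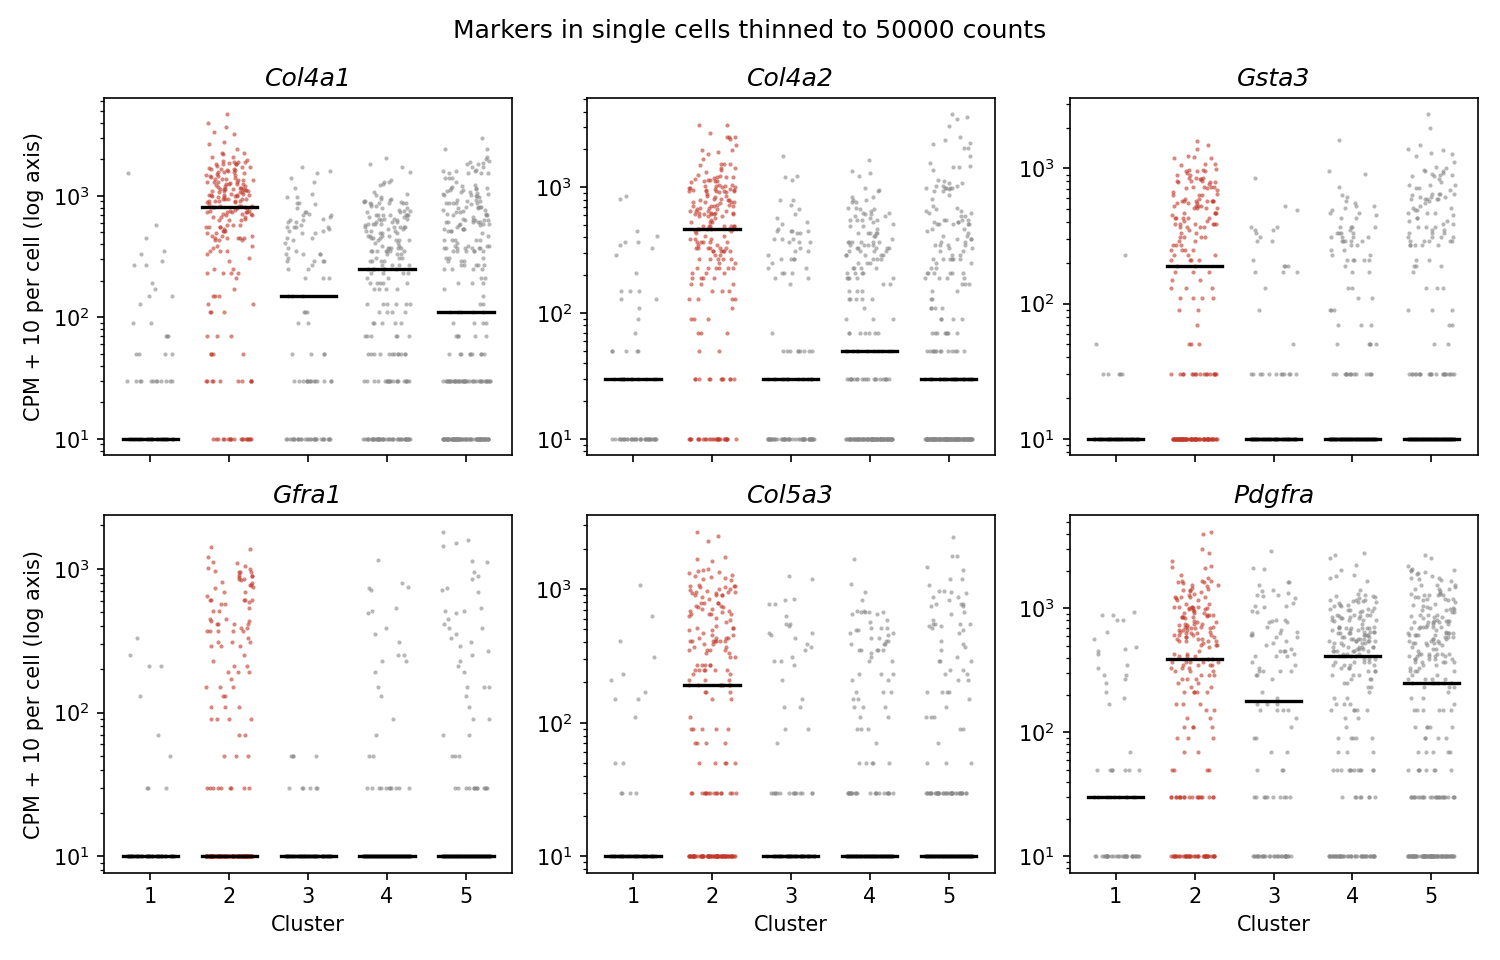
Level of 6 genes in single cells of the fibroblast clusters 1 to 5 after thinning each cell to 50000 counts, as CPM + 10 on a log axis, with 1 point a cell (cluster 2 in red) and a black line at the median of each cluster. The medians in cluster 2 are 800 CPM for Col4a1 and 460 CPM for Col4a2, and that of Gfra1 is 0 in every cluster. Cells are pooled over strains, which the clusters hold in unequal shares.

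Correlations between the markers from cell to cell were mostly weak. Within C57BL6, Pearson's r between log2 levels of Col4a1 and Col4a2 was 0.28 over the cells of cluster 2, in PdgfrbGFP it was 0.02 over 49 cells and in Acta2GFP 0.73 over 38 cells. The other 9 pairs of the 5 markers had r between -0.21 and 0.28 in these strains. Cells of a strain share their plates and vary in depth before thinning, and these values are descriptions.

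Across all genes, cluster 2 was next set against clusters 3 to 5. At an adjusted p of 0.05, edgeR called 0 of 13870 genes in either direction (0%), and 817 genes (5.89%) had an unadjusted p under 0.05. DESeq2 called 1.16% of these genes higher and 2.09% lower, and limma with equal weights called 0. With 4 strains and counts that depend on the method, these calls do not measure how far the clusters differ. Because no gene met that threshold, genes were instead named by size, a rule chosen after seeing the data. A gene had to differ 2-fold or more on the CPM + 1 scale in the same direction in each of 4 strains and had to be counted in at least 30% of cells on the side where it was higher. This held for 14 genes higher (0.101% of genes tested) and 32 genes lower (0.231%) in cluster 2. The median log2 fold change over all genes tested was -0.11, against which the fitted values should be read. Leaving out any 1 strain gave 19 to 36 genes higher and 42 to 56 lower, since 3 strains are an easier demand than 4. With cells thinned to 50000 counts, 7 of the 14 and 13 of the 32 met the rule again, whereas the higher genes Hsd11b1, Blnk, Col6a3, Fscn1, Grap, Adcy3 and Gm37035 did not, nor did Comp, Ccdc3, Fn1, Sema3c, Scara3, Gja1, Ahsg and Efhd1 among the lower genes. With plates in place of strains as units, 13 of the 14 and 23 of the 32 met it.

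**Figure D2:**
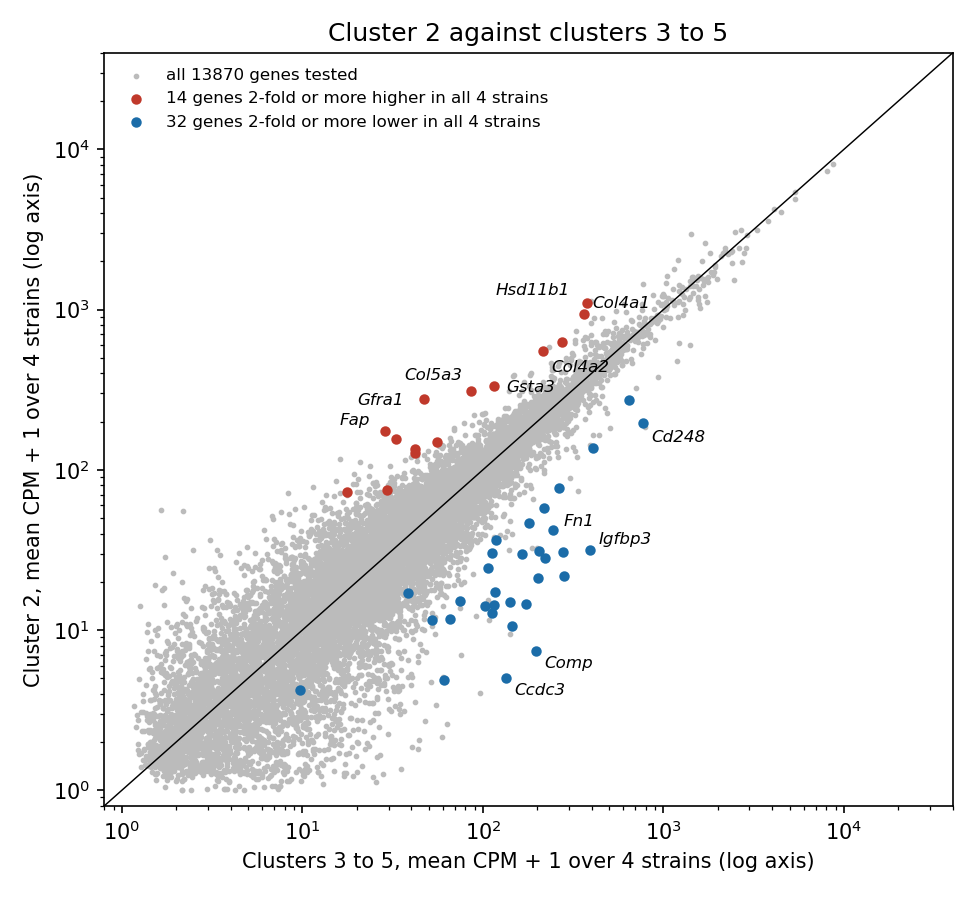
Mean CPM + 1 over 4 strains in cluster 2 against clusters 3 to 5, both on log axes, for 13870 genes in grey, with the line of equality. The 14 genes that were 2-fold or more higher in every strain are red and the 32 that were lower are blue, with Comp and Ccdc3 below 10 CPM and Col4a1 and Hsd11b1 near the top of the red points.

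The 14 higher genes were Blnk, Fap, Adcy3, Gfra1, Col5a3, Hsd11b1, Grap, Fscn1, Gsta3, St6galnac2, Gm37035, Col4a1, Col4a2 and Col6a3. Each had its highest mean of the 5 fibroblast clusters in cluster 2, and in 10 of the 14 the next highest mean of clusters 3 to 5 was in cluster 5. These means cover unlike strains, with C57BL6 and PdgfrbGFP in cluster 5, 3 strains in cluster 3 and 4 in clusters 1, 2 and 4, so the order of the other clusters cannot be told apart from that of the strains. In 12 of the 14, cluster 2 exceeded the other cluster in all 9 pairings of a strain with cluster 3, 4 or 5. Col6a3 and Gm37035 did so in 8 of 9.

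Beside Col4a1 and Col4a2, the set held the collagen genes Col5a3 and Col6a3. Col5a3 (chr9:20770050-20815067, minus strand), which encodes a chain of the fibril-forming type V collagen, had 444, 335, 230.7 and 230.7 CPM in cluster 2 against 137.7, 86.01, 48.97 and 68.4 CPM in clusters 3 to 5, a log2 fold change of 1.94 ± 0.16. Col6a3, a chain of the microfibrillar type VI collagen, had 745, 441, 805 and 504 CPM against 268.9, 214.2, 379 and 236.7 CPM (1.20 ± 0.12). Fap encodes the membrane-bound peptidase known as fibroblast activation protein and had 93.99, 141.6, 268.4 and 191.5 CPM against 30.4, 42.8, 33.3 and 4.30 CPM (2.88 ± 0.73). For Col5a3 and Fap, both chosen for a 2-fold difference in every strain, no value of cluster 2 fell within the range of the other clusters.

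The other genes of the higher set were of several kinds. Hsd11b1, the enzyme that regenerates active glucocorticoid from its inert form, had 1150, 1391, 1018 and 816 CPM in cluster 2 against 444, 690, 119.4 and 251.2 CPM in clusters 3 to 5 (1.81 ± 0.34). Blnk, an adaptor protein best known from B cell receptor signalling, had 144.6, 160.8, 122.8 and 189.5 CPM against 25.6, 75.4, 2.47 and 23.8 CPM (2.96 ± 0.75), while the 5 immune markers summed to 21.5 CPM in cluster 2. Fscn1, an actin-bundling protein, had 113.1 to 157.9 CPM against 33.3 to 45.6 CPM (1.65 ± 0.26). Grap (an adaptor of receptor signalling, 1.66 ± 0.27), St6galnac2 (a sialyltransferase, 1.54 ± 0.26) and Adcy3 (an adenylyl cyclase, 2.62 ± 1.18) followed. The span of Adcy3 shares 17522 bases with that of Cenpo on the other strand, and the antisense model Gm37035 (1.48 ± 0.39) shares 992 bases with P2ry1, so reads of these genes are assigned with less certainty.

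The 32 lower genes included several that encode secreted and matrix proteins. Comp, which encodes cartilage oligomeric matrix protein, had 3.66, 4.63, 2.46 and 14.7 CPM in cluster 2 against 117.2, 168.6, 358 and 142.1 CPM in clusters 3 to 5, a log2 fold change of -5.04 ± 0.70. Ccdc3, which encodes a secreted protein, had 0.878, 0.522, 2.71 and 11.8 CPM against 42.3, 20.9, 282.5 and 190 CPM (-5.34 ± 0.58). Prg4, the gene of the joint lubricant lubricin, had 8.65, 32.03, 33.7 and 33.4 CPM against 106.1, 151.6, 342 and 285.2 CPM (-3.04 ± 0.31). The groups did not overlap in these 3 genes, which had been chosen for a 2-fold difference in every strain. For Comp and Ccdc3 few cells carried the sums. After thinning, Comp had a median of 0 CPM in each of clusters 2 to 5 and was counted in 25.6% of cluster 2 cells, 21.4% of cluster 3, 32.6% of cluster 4 and 17.5% of cluster 5, with up to 8960 CPM in single cells of cluster 5. Ccdc3 was counted in 9.59% of cluster 2 cells and in 6.16% to 23.6% of those of clusters 3 to 5.

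Fn1, which encodes the adhesive matrix protein fibronectin, had 22.8, 38.7, 45.5 and 58.02 CPM in cluster 2 against 106.1, 133.4, 455 and 285.1 CPM in clusters 3 to 5 (-2.36 ± 0.31). Igfbp3, a binding protein of insulin-like growth factors, had 45.4, 63.1, 0.246 and 12.7 CPM against 324, 299.7, 388 and 552 CPM (-4.38 ± 1.20). Sema3c, a secreted guidance protein, had 16.9, 16.6, 0.492 and 4.19 CPM against 87.05, 125.5, 111.1 and 254.5 CPM (-4.42 ± 1.04). Cd248, which encodes the surface protein endosialin, had 47.5 to 353 CPM against 446 to 1132 CPM (-2.21 ± 0.40). Igfbp3, Cd248 and Efhd1 were not lowest in cluster 2: Igfbp3 had means of 2528 CPM in cluster 3 and 23.1 CPM in cluster 4 beside 30.4 CPM in cluster 2, and was counted after thinning in 29.2% of cluster 2 cells against 23.6% and 25.7% of those of clusters 4 and 5. The sums of cluster 2 and of clusters 3 to 5 together did not overlap in Fn1, Igfbp3, Sema3c and Cd248, all chosen by the size rule. The level within cluster 2 varied widely for Igfbp3 and Sema3c.

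Further lower genes were Scara3 (-4.63 ± 1.41), the gap junction gene Gja1 (-3.75 ± 1.14), Ahsg (-3.68 ± 1.00), the carboxypeptidase gene Cpe (-3.65 ± 0.59), Efhd1 (-3.62 ± 0.82), the actin-associated gene Pdlim3 (-3.62 ± 0.73) and Cd200 (-3.34 ± 0.86), a surface ligand of myeloid cells. In 17 of the 32 genes the highest mean among clusters 3 to 5 was in cluster 4, in 14 in cluster 3 and in 1, the stress-response gene Gadd45g, in cluster 5. Cluster 2 had the lowest mean of clusters 2 to 5 in 27 of the 32, and in 15 of the 32 it was below the other cluster in all 9 pairings of strain and cluster. These means again cover unlike strains. Comp, Ccdc3, Scara3, Cpe and Pdlim3 had a higher mean still in cluster 1.

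Each other fibroblast cluster was then compared with cluster 2 by itself, to see which genes told each pair apart. These comparisons share the cluster 2 sums. Against cluster 1, 68 genes passed an adjusted p of 0.05 in edgeR as higher in cluster 2 (0.556% of 12221 tested) and 61 as lower (0.499%), over 4 strains. Against cluster 3, 12 passed as higher (0.0922% of 13015) and 19 as lower (0.146%) over 3 strains, and against cluster 4, 6 (0.0449% of 13351) and 10 (0.0749%) over 4 strains. These counts depended on the strains included. Against cluster 1 they were 2 and 2 without C57BL6, 2 and 3 without PdgfrbGFP and 4 and 18 without Acta2GFP, and against cluster 3 they were 2 and 11 without PdgfrbGFP, 41 and 44 without Acta2GFP and 29 and 44 without C57BL6. Against cluster 5, with C57BL6 and PdgfrbGFP only, 0 of 15153 genes passed in edgeR in either direction, 736 had an unadjusted p under 0.05 (4.86%), and DESeq2 called 0.805% higher and 1.17% lower. The median of all genes was shifted by 0.24 against cluster 1 and by 0.61 against cluster 3, so values there should be read relative to those shifts. The counts differ in the number of strains and cells behind them, and a difference between them was not tested.

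From cluster 1, cluster 2 differed most by genes that were close to absent in 1 of the pair. The 5 largest that passed and were higher in cluster 2 were Ifi211 (8.58 ± 1.31), Ret (7.96 ± 1.12), Hmcn2 (7.63 ± 0.81), Aldh1a2 (7.58 ± 0.87) and Ifi207 (7.52 ± 0.95). Ret encodes the receptor tyrosine kinase through which GFRA1 signals, with means of 115.7 CPM in cluster 2 against 0.445 CPM in cluster 1. Aldh1a2 encodes an enzyme of retinoic acid synthesis, at 225.9 against 1.51 CPM, and Hmcn2 encodes hemicentin 2, a matrix protein, at 312 against 1.57 CPM. The 5 largest lower genes were Cyp26a1 (-10.32 ± 0.86), an enzyme that degrades retinoic acid, Scx (-10.30 ± 1.43), the tendon transcription factor scleraxis, Zfp185 (-10.12 ± 1.45), Uts2r (-10.06 ± 1.24) and Shisa2 (-9.92 ± 0.83). The span of Ifi211 lies within that of Mndal on the same strand (16702 shared bases), and that of Scx within Bop1 on the other strand (2007 shared bases), so their reads are less certain. Each of the 5 lower genes had a mean under 1 CPM in cluster 2 against 120.95 to 295 CPM in cluster 1. All 5 markers had higher means in cluster 2 than in cluster 1, and Col4a1 (4.24 ± 0.54), Col4a2 (3.01 ± 0.30), Gsta3 (6.64 ± 0.85) and Pdgfra (2.17 ± 0.29) passed the threshold.

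From cluster 3, cluster 2 differed most by Gfra1 (7.38 ± 1.11), followed by Cxcl14, a chemokine (5.57 ± 0.53), Scara5, a ferritin receptor (5.12 ± 0.80), Smoc2 (2.39 ± 0.17) and Srpx2 (2.31 ± 0.36). Smoc2, a calcium-binding matrix protein associated with basement membranes, had a mean of 2947 CPM in cluster 2 against 519 CPM in cluster 3. Lower in cluster 2 were Igfbp3 (-6.19 ± 0.47), with 30.4 against 2528 CPM, Cdc42ep3 (-4.65 ± 0.65), Cpe (-4.34 ± 0.44), Dkk3 (-4.14 ± 0.42) and Fgl2 (-3.96 ± 0.49). Of the cluster 2 genes, Hsd11b1 also passed against cluster 3 (1.79 ± 0.22). Collagen IV did not pass here (Col4a1 2.53 ± 0.82, Col4a2 1.63 ± 0.33) although both genes were higher in 3 of 3 strains.

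From cluster 4, cluster 2 differed by Hsd11b1 (2.84 ± 0.30), Col5a3 (1.88 ± 0.17), G0s2 (1.73 ± 0.15), Prss23 (1.69 ± 0.17) and Lpl (1.67 ± 0.17), and Col4a1 (1.42 ± 0.13) completed the 6 higher genes. G0s2 encodes an inhibitor of triglyceride breakdown and Lpl encodes lipoprotein lipase. Prss23, a secreted protease, overlaps the antisense gene Prss23os over 1867 bases, so its reads are less certain. The 5 largest lower genes were Ccdc3 (-5.97 ± 0.61), Prg4 (-3.66 ± 0.35), Cd248 (-2.83 ± 0.30), Fn1 (-2.76 ± 0.27) and Csrp2 (-2.36 ± 0.22). Leaving out any 1 strain left 0 of the 6 higher genes past the threshold and at most 1 gene lower, so these calls rest on having all 4 strains.

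Cluster 5 could be set against cluster 2 in 2 strains. In C57BL6 and PdgfrbGFP, the log2 fold change of cluster 2 over cluster 5 was 1.03 ± 0.13 for Col4a1, 1.02 ± 0.17 for Col4a2, 0.87 ± 0.16 for Gsta3, 1.19 ± 0.25 for Gfra1 and 1.81 ± 0.19 for Col5a3, with the higher level in cluster 2 in 2 of 2 strains for each. Hsd11b1 (0.44 ± 0.11), Lpl (0.03 ± 0.09), Cxcl14 (-0.20 ± 0.11) and Aldh1a2 (-0.02 ± 0.24), which set cluster 2 apart from cluster 1, 3 or 4, were within 0.5 of equal between clusters 2 and 5. Gadd45g was lower in cluster 2 (-2.11 ± 0.17). None of these differences passed the adjusted threshold with 2 strains.

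**Figure D3:**
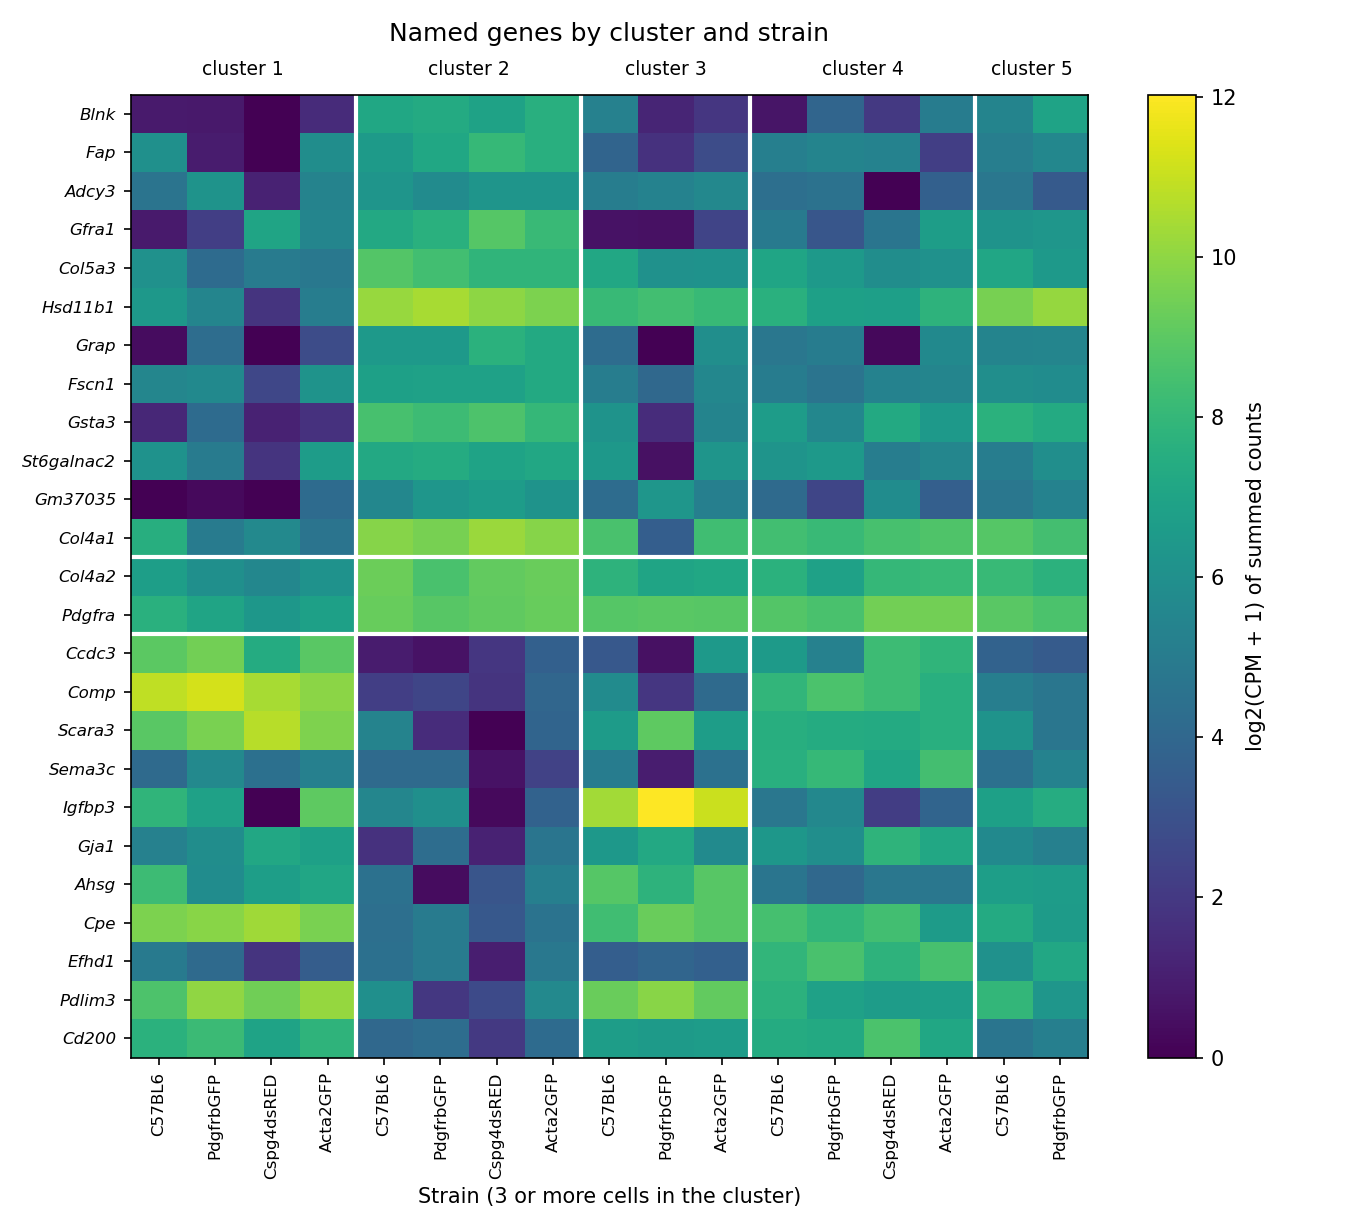
Level of 25 genes as log2(CPM + 1) of summed counts in each fibroblast cluster and strain with 3 or more cells, with colour from dark (0) to yellow (12). Rows above the first white line are the 12 largest higher genes, the 2 rows between the lines are the remaining markers Col4a2 and Pdgfra, and rows below are 11 of the 12 largest lower genes. The cluster 2 columns are bright above and dark below in all 4 strains, and Igfbp3 is brightest in cluster 3 and Comp in cluster 1.

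Gene lists that were assembled with earlier results of these data in view were read against the same background. Over all genes tested, 943 (6.8%) were higher in all 4 strains in cluster 2 than in clusters 3 to 5 and 1568 (11.3%) were lower. Among the 4457 genes with a mean of 50 CPM or more, to which most members of the lists below belong, these shares were 10.4% and 11.96%. No list member passed the adjusted threshold of edgeR, so members are described by direction.

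Basement membrane components had the largest median of the matrix lists. Of 25 genes tested, 10 were higher in all 4 strains and 4 were lower, and the median log2 fold change was 0.53 against -0.11 for all genes. The higher genes include Col4a1 and Col4a2, which were given as markers of cluster 2, so the count and median rest in part on them. Beside the collagen IV chains, the laminin chain genes Lama2 (1.16 ± 0.14), Lamb1 (1.59 ± 0.27) and Lamc1 (0.67 ± 0.13), which together encode the 3 subunits of a laminin of muscle basement membranes, were higher. Lamb1 had 881, 866, 1096 and 1655 CPM in cluster 2 against 441, 411, 185.1 and 543 CPM in clusters 3 to 5. Lama2 had 978, 703, 852 and 988 CPM against 531, 376, 277.1 and 459 CPM. The groups did not overlap for either gene.

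Linking and associated components of the basement membrane were also among the higher genes. Hspg2, which encodes perlecan, had means of 670 CPM in cluster 2 against 366 CPM in clusters 3 to 5 (0.91 ± 0.17), Nid2 193.8 and 78.01 CPM (1.14 ± 0.48), and Col15a1, the gene of a collagen close to basement membranes, 335 and 178.9 CPM (0.92 ± 0.19). Smoc2 (1.11 ± 0.11) and Sparcl1 (0.64 ± 0.07) were also higher in 4 of 4 strains. Exceptions were Lamb2, at 176.1 against 313 CPM (-1.02 ± 0.27), and Col4a6, Lama5 and Smoc1, which had under 5 CPM in cluster 2. The nidogen gene Nid1 (1241 against 872 CPM) and the other collagen IV chains Col4a3, Col4a4 and Col4a5 did not go 1 way over the strains. For Nid2 the excess came from Cspg4dsRED and Acta2GFP (291.3 against 62.2 and 295 against 70.7 CPM), whereas C57BL6 had 104.1 against 98.4 CPM.

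The fibrillar collagens were read next. Of 7 fibrillar collagen genes tested, Col5a3 alone was higher in all 4 strains and 0 were lower, with a list median of 0.01. Col1a1 had means of 2235 CPM in cluster 2 against 2276 CPM in clusters 3 to 5, Col1a2 1898 and 1930 CPM, and Col3a1 1834 and 1943 CPM. Among 9 other collagens tested, 5 were higher and 1 lower in all 4 strains. The type VI chains Col6a1 (0.54 ± 0.10), Col6a2 (0.68 ± 0.10), Col6a3 and Col6a6 (1.63 ± 0.97) were higher, as was Col8a1 by 0.20 ± 0.12. Col14a1, a collagen of fibril surfaces, was lower in 4 of 4 strains (-1.19 ± 0.21).

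Elastic fibre and adhesive matrix genes were more often lower. Of 17 elastic fibre genes 7 were lower and 1 was higher in all 4 strains, among them Mfap4 (617 against 1220 CPM, -0.99 ± 0.20), Fbln1 (1534 against 2476 CPM, -0.65 ± 0.11) and Ltbp2 (-1.48 ± 0.46), while Emilin1 was higher (0.76 ± 0.19). Of 18 matricellular genes 6 were lower and 1 was higher. Postn, which encodes periostin, had 168.3, 14.2, 245.8 and 305 CPM in cluster 2 against 286.3, 723, 964 and 1189 CPM in clusters 3 to 5 (-2.37 ± 0.80), so its lower level was least marked in C57BL6. Thbs2, a thrombospondin gene, was the higher one, with 827 against 396 CPM (1.11 ± 0.24). Of 12 small leucine-rich proteoglycans 1 was higher (Prelp, 0.79 ± 0.10, whose protein binds perlecan and collagens) and 2 were lower, and Dcn (5445 against 5361 CPM) and Lum (2319 against 2202 CPM) were nearly level.

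Among 24 matrix proteases and inhibitors, 6 were higher and 4 lower in all 4 strains. The membrane-bound collagenase gene Mmp14 (704 against 461 CPM, 0.66 ± 0.13), the aggrecanase gene Adamts5 (0.98 ± 0.47) and Htra3 (0.34 ± 0.07) were higher. The inhibitors Timp1 (-1.04 ± 0.22), Timp2 (-0.32 ± 0.09) and Timp3 (-1.18 ± 0.11) were lower, Timp3 with 595, 485, 601 and 708 CPM against 1303, 1343, 1122 and 1831 CPM. All 3 inhibitors were thus lower in every strain, and Timp3 by more than 1.5-fold throughout.

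**Figure D4:**
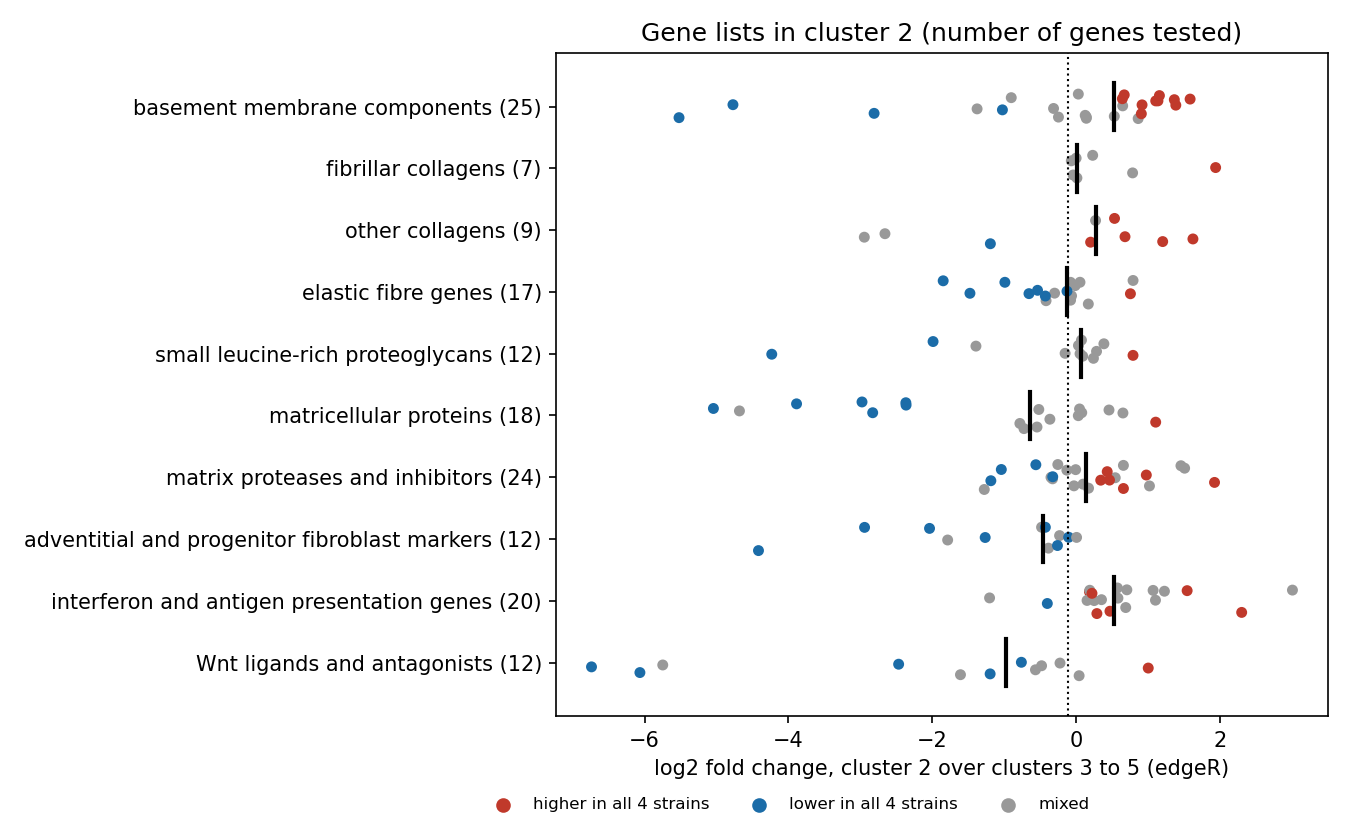
Log2 fold change of cluster 2 over clusters 3 to 5 in edgeR for the tested members of 10 gene lists, with 1 point a gene, coloured by whether it was higher or lower in all 4 strains or mixed. The black bars are list medians and the dotted line is the median of all genes (-0.11), and the basement membrane list is shifted to the right (median 0.53) while matricellular and Wnt genes spread to the left.

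In the lists of growth factors and receptors described next (GDNF, PDGF with FGF and VEGF, IGF, BMP and Wnt), 7.14% to 16.7% of the genes tested were higher in all 4 strains, near the 10.4% of all genes at 50 CPM or more. The shares lower in all 4 strains were 16.7% for GDNF, 25% for PDGF with FGF and VEGF, 33.3% for IGF, 42.9% for BMP and 41.7% for Wnt. Of all genes at 50 CPM or more, 11.96% were lower. GFRA1 binds GDNF and signals through RET, and both receptor genes were higher in cluster 2. Ret had 73.4, 82.01, 187.9 and 119.4 CPM in cluster 2 against 27.98, 44.99, 39.5 and 78.7 CPM in clusters 3 to 5 (1.30 ± 0.36). The ligand genes Gdnf, Nrtn, Artn and Pspn had means under 0.1 CPM in cluster 2, with Gdnf and Pspn at 0 in all 4 strains. Of 12 genes of this list tested, 2 were higher and 2 lower, and the higher ones include the given marker Gfra1.

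In the PDGF, FGF and VEGF list 2 of 20 genes were higher, Pdgfrb (301 against 228.1 CPM, 0.43 ± 0.14) and Angptl2 (975 against 547 CPM, 0.86 ± 0.09), and 5 were lower. In the IGF axis Igf1, the main growth factor of the family, was lower with 242.8 against 475 CPM (-0.89 ± 0.17), and Igf2r, the receptor that clears IGF2, was higher with 131.6 against 65.9 CPM (0.99 ± 0.26). Of 14 genes of BMP signalling 6 were lower, including the antagonist gene Nbl1 (163.8 against 441 CPM, -1.45 ± 0.24) and the ligand gene Gdf10 (4.09 against 59.02 CPM), and Bmp6 was higher (0.97 ± 0.51). Of 12 Wnt ligands and antagonists 5 were lower, including Dkk3 (72.5 against 334 CPM, -2.47 ± 0.45) and Sfrp1 (-0.76 ± 0.14), and the antagonist gene Frzb was higher with 387 against 180 CPM (1.00 ± 0.25).

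Genes that mark adventitial or progenitor fibroblasts were mostly lower or mixed in cluster 2. Of 12 genes tested 7 were lower and 0 higher in all 4 strains, with a list median of -0.45. Their summed level of 6539 CPM compared with 10896 CPM for cluster 4, 6304 CPM for cluster 5 and 3382 CPM for cluster 3. The scavenging chemokine receptor gene Ackr3 had 411, 400, 439 and 275.5 CPM in cluster 2 against 768, 1008, 1137 and 821 CPM (-1.26 ± 0.13), and Ly6c1 had 40.6 against 135.8 CPM (-2.04 ± 0.46). Pi16, the gene most used for adventitial fibroblasts, had 1353 against 1575 CPM and did not go 1 way over the strains. Over strains the sums ran from 5397 to 7411 CPM in cluster 2, 9415 to 12299 CPM in cluster 4, 5597 to 7012 CPM in cluster 5 and 3248 to 3548 CPM in cluster 3. These values cover 4 strains in clusters 2 and 4, 3 in cluster 3, and only C57BL6 and PdgfrbGFP in cluster 5. The order of the clusters therefore cannot be told apart from that of the strains.

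Lists of metabolic and hormone response genes were read next. Of 17 lipid genes 4 were higher, among them Lpl (1450 against 770 CPM, 1.08 ± 0.20), the lipid droplet gene Plin2 (221.2 against 99.05 CPM, 1.18 ± 0.28) and Apod (353 against 167.1 CPM, 1.20 ± 0.37), and 2 were lower, including Apoe (-0.43 ± 0.08). Of 9 retinoic acid genes 2 were higher, the synthesis genes Aldh1a1 (644 against 356 CPM, 0.89 ± 0.14) and Aldh1a2 (1.12 ± 0.33), and 2 were lower, the synthesis gene Aldh1a3 (-4.10 ± 1.08) and the retinol carrier gene Rbp4 (-6.32 ± 1.63), with a list median of -0.02. Of 12 glucocorticoid genes 3 were higher (Hsd11b1, Tsc22d3 with 0.46 ± 0.12 and Klf9 with 0.74 ± 0.38) and 1 was lower. Of 26 genes of glutathione and xenobiotic metabolism 3 were higher and 3 lower (11.5% each). Beside the given marker Gsta3, the largest of the higher ones was Gstm2 with 0.28 ± 0.12.

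Genes that respond to interferon and present antigen had a list median of 0.52, with 6 of 20 higher and 1 lower in all 4 strains. H2-K1, a class I histocompatibility gene, had 1065, 944, 1758 and 589.9 CPM in cluster 2 against 791, 678, 979.8 and 588 CPM in clusters 3 to 5 (0.47 ± 0.14), so the values were level in Acta2GFP. Ifit1 had 74.8, 25.4, 208.4 and 64.3 CPM against 25.5, 7.93, 1.23 and 38.8 CPM (2.30 ± 1.13), and its highest value came from the 8 cells of Cspg4dsRED.

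Genes induced when tissue is dissociated were also read, since they can differ with handling. Of 30 immediate early and stress genes 4 were lower and 1 was higher in all 4 strains, with a list median of -0.16. The nuclear receptor genes Nr4a1 (477 against 1190 CPM, -1.28 ± 0.16), Nr4a2 and Nr4a3 and the factor gene Klf2 were the lower ones, whereas Fos had 2240 against 2805 CPM and Jun 1614 against 1546 CPM. Their part in the other differences was not tested. Of 27 transcription factor genes of heart and mesenchyme 2 were higher (the Notch target Heyl with 0.81 ± 0.15 and Foxs1 with 1.23 ± 0.32) and 6 lower. In the remaining lists the counts higher and lower were 1 and 3 of 14 complement genes, 1 and 2 of 17 chemokines and cytokines, 0 and 6 of 23 guidance genes, 1 and 2 of 16 integrins, 2 and 3 of 11 iron and copper genes and 1 and 3 of 18 channels and carriers.

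The profile of cluster 2 was compared across strains cell by cell. For each cell, means of the 5 fibroblast clusters were taken from the other 3 strains over 500 genes chosen there, and the cell was given the cluster whose mean correlated best with it. Of the cells of cluster 2, 72.1% were nearest to the cluster 2 mean of the other strains, 25.1% (55 cells) to cluster 5, 5 cells to cluster 4 and 1 cell to cluster 1. This was so for 36 of 38 cells of Acta2GFP, 8 of 8 of Cspg4dsRED, 72.6% (90 cells) of C57BL6 and 24 of 49 of PdgfrbGFP, where the other 25 were nearest to cluster 5. Over 1000 genes the share nearest to cluster 2 was 21 of 49 cells for PdgfrbGFP, with the other 28 nearest to cluster 5. In the reverse direction, 23 cells of cluster 5 (7.88%), 13 of cluster 4 (5.58%) and 4 of cluster 3 (3.57%) were nearest to cluster 2. The labels had been assigned on the same counts, so this measures how the profile carried over between strains and not how well cells were assigned.

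Cells within cluster 2 were slightly less alike than cells within the other fibroblast clusters. The mean pairwise Pearson correlation of thinned log2 profiles ran from 0.244 (Cspg4dsRED) to 0.297 (Acta2GFP), with 0.286 for C57BL6. In C57BL6 clusters 3 to 5 had 0.294, 0.294 and 0.297, and in Acta2GFP cluster 4 had 0.326. Cluster 2 had the lowest value of its strain in all strains but Cspg4dsRED, where the 3 cells of cluster 1 had 0.216, and these differences were not tested. The 10 genes of 4320 with the largest spread between cluster 2 cells beyond the trend with level were Ccn1, Tsc22d3, C3, Col6a2, Col6a3, Prss23, Lpl, Axl, Slc25a3 and Oat, with a median excess SD of 1.00 for Ccn1 and 0.76 for Oat on the log2 scale. Ccn1, a matricellular gene induced by growth factors and stretch, had an SD of 3.60 over C57BL6 cells of cluster 2 and 3.98 over those of clusters 3 to 5. In Acta2GFP its SD was 2.73 in cluster 2 and 1.96 in clusters 3 to 5. Over the 4 strains Ccn1 had the lower SD in cluster 2 in 3, C3 in 4 (3.76 against 4.17 in C57BL6) and Oat in 0 (3.71 against 3.41), and these differences were not tested.

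Most of the genes that set 1 strain apart within cluster 2 came from the strain with the fewest cells. A gene was listed for a strain when its sum there was 8-fold or more above or below that of each other strain, with 50 CPM or more on the higher side. By this rule C57BL6 had 0 genes higher and 0 lower, PdgfrbGFP 3 and 11, Acta2GFP 9 and 2, and Cspg4dsRED, with 8 cells, 59 and 90. Between both larger C57BL6 plates, 6 of 4308 genes at 50 CPM or more differed 8-fold, and the median absolute log2 difference was 0.40, against 0.40 to 0.70 between pairs of strains. Cspg4, the gene whose reporter was sorted, had 207.9 CPM in Cspg4dsRED and 0.401 to 1.11 CPM in the other 3 strains. In PdgfrbGFP the 11 lower genes included the interferon-response genes Iigp1 (1.83 CPM against 87.4 to 223.4 CPM), Igtp and Ifih1, and Postn (14.2 CPM against 168.3 to 305 CPM). In Acta2GFP the higher genes were led by Apol6, Fam84b and Ppm1f, and Inhbb, a subunit gene of activin B, was lower (7.16 CPM against 73.9 to 142.9 CPM). Acta2 itself had 26.7, 81.4, 147.4 and 253.6 CPM in C57BL6, PdgfrbGFP, Cspg4dsRED and Acta2GFP, the highest level being in the strain sorted on that reporter.

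The share of cluster 2 differed between strains, which cannot be told apart from their sorts. Of all cells captured, it took 22.2% in Acta2GFP (95% Wilson interval 16.6 to 29.03%), 21.3% in C57BL6 (18.2 to 24.9%), 13.5% in PdgfrbGFP (10.3 to 17.4%) and 4.91% in Cspg4dsRED (2.51 to 9.38%). Among cells of clusters 1 to 5 the shares were closer, at 31.7% in Acta2GFP, 22.8% in C57BL6, 20.8% in PdgfrbGFP and 30.8% in Cspg4dsRED, with an interval of 16.5 to 49.99% for the 26 fibroblasts of Cspg4dsRED. The C57BL6 plates heart_203s and heart_316s gave 22.3% and 23.1% of fibroblasts. Intervals cover counting error only, and with 1 plate per reporter strain beside those of C57BL6 no test was made.

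**Figure D5:**
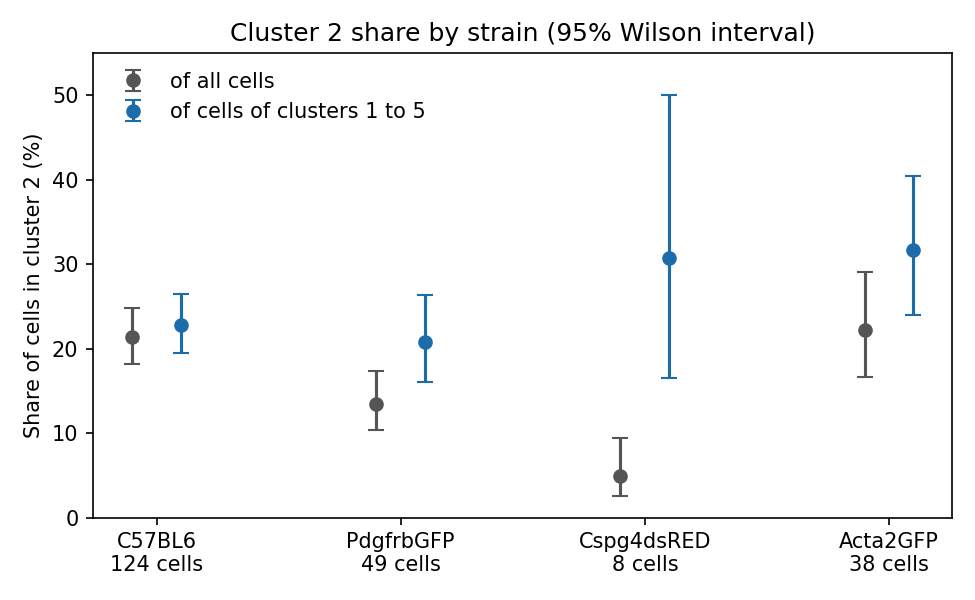
Share of cells in cluster 2 by strain in percent, of all cells in grey and of the cells of clusters 1 to 5 in blue, with 95% Wilson intervals and the number of cluster 2 cells below each strain. The share of all cells runs from 4.91% in Cspg4dsRED to 22.2% in Acta2GFP, whereas the shares of fibroblasts lie between 20.8% and 31.7% with overlapping intervals.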

How the data were processed

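The authors sorted single cells into plates, prepared Smart-seq2 libraries, mapped reads to GRCm38 (mm10) with TopHat2 and Bowtie or Bowtie2, and counted reads per gene with featureCounts. The authors deposited raw read counts per gene and cell, unnormalized. The authors removed cells of low or outlying quality, so no cell was left out here and no doublet caller was run. Clusters were made by the authors with pagoda2 on the same counts.

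The table held 1279 cells (cluster 2 219, of which 124 from C57BL6; cluster 1 70, cluster 3 112, cluster 4 233 and cluster 5 292) and 46609 features, of which 92 were ERCC spike-ins (1.82% of counts), kept out of library sizes. Of 46517 genes, 46005 matched the GENCODE M21 annotation of GRCm38. All 1279 cell names were distinct, no columns were identical, and 2 cells fell below the 50000 counts used for thinning.

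Counts were summed per strain and side, with 3 or more cells on each, and tested in R 4.3.3 by the quasi-likelihood method of edgeR 4.0.16, with strain as a block, TMM normalization, filterByExpr with a minimum count of 10, and Benjamini-Hochberg adjustment at 0.05. Sums of 1 strain came from the same sort and plates, which is where the pairing comes from. DESeq2 1.42.0 and limma 3.58.1 were alternatives. Genes to be named were the given markers and the largest fold changes past the threshold (12 per direction, 5 against a single cluster). As none passed against clusters 3 to 5, the size rule in the report replaced the threshold there, chosen after seeing the data, and 1 gene it named is not reported here. The members and gene lists were chosen with earlier results of these data known.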

Additional observations from a re-analysis of the deposited data

Results flagged for a closer look

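Of 64 sets of 4 strain values, 6 had a strain far from the other 3 by Dixon's ratio at its 95% critical value, and chance gives about 1 in 20. In 4 of the 6 the strain was Cspg4dsRED, which had 8 cells of cluster 2. The log2 difference of Gfra1 between cluster 2 and clusters 3 to 5 was 4.39 in Cspg4dsRED and 1.86 to 2.04 in the other strains. That of Adcy3 was 6.06 against 1.54 to 1.73, that of St6galnac2 was 2.12 against 1.24 to 1.35, and that of Cd200 was -6.59 against -2.80 to -2.17. The direction was the same in all 4 strains for each of these genes, as the rule that named them required. Fscn1 had 157.9 CPM in cluster 2 of Acta2GFP and 113.1 to 118.8 CPM in the others, and Adcy3 had 55.2 CPM in PdgfrbGFP and 75.7 to 77.5 CPM in the others.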

How the results depend on the processing

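The share of genes past the threshold depended on the method. None of the genes named by rule (26 against clusters 3 to 5, and 10 each against clusters 1, 3 and 4) changed sign under the alternatives run. Apart from the given marker Pdgfra, these genes had been chosen for going 1 way in every strain. Their kept sign therefore adds no further support. The genes given against cluster 5 were not refitted one by one. Shares are percentages of the genes fitted, higher then lower in cluster 2. Against clusters 3 to 5 (0 and 0), DESeq2 gave 1.16 and 2.09%, no filter 0.0368 and 0.0221%, plates as units 0.0956 and 0.0809%, cluster 1 added to the other side 0.0276 and 0.0207%, and thinned cells 0.0616 and 0.0704%. DESeq2 size factors, limma with equal weights and each left-out strain gave 0. Without the replicate block the shares were 0 and 0 against clusters 3 to 5, 0.851 and 0.810% against cluster 1, 0.0231 and 0.0461% against cluster 3, and 0.0225 and 0.0899% against cluster 4. Against cluster 1 (0.556 and 0.499%), DESeq2 gave 5.11 and 3.88%, no filter 0.526 and 0.405%, and leaving out a strain 0.0159 to 0.567% and 0.0164 to 0.498%. There the calls were 2 and 2 without C57BL6, 2 and 3 without PdgfrbGFP and 4 and 18 without Acta2GFP. Against cluster 3 (0.0922 and 0.146%), DESeq2 gave 2.30 and 0.738%, no filter 0.185 and 0.202%, DESeq2 size factors 0.292% lower, and leaving out a strain 0.0138 to 0.301% and 0.0761 to 0.368%, the lowest without PdgfrbGFP (2 and 11 genes) and the highest without Acta2GFP or C57BL6. Against cluster 4 (0.0449 and 0.0749%), DESeq2 gave 1.72 and 2.53%, no filter 0.113 and 0.0933%, and leaving out a strain 0 and 0 to 0.0072%. Against cluster 5, DESeq2 gave 0.805 and 1.17%, and no strain could be left out of 2.

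The size rule and its alternatives were chosen after seeing the data. In place of 0.101 and 0.231% of genes (14 and 32), 1.5-fold gave 0.418 and 0.577%, 3-fold 0.0216 and 0.0865%, a count in 50% of cells 0.0649 and 0.101%, no detection minimum 0.267 and 1.18%, cluster 1 added 0.166% higher, thinned cells 0.115% lower (13 of the 32 kept, and 7 of the 14 higher genes), and leaving out a strain 0.137 to 0.260% and 0.303 to 0.404%.

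The mean log2 ratio of the ERCC share was -0.14 with means per strain and -0.0438 to 0.0841 when a strain was left out, and that of thinned detected genes was -0.00408 (without PdgfrbGFP) to 0.0344. As a share of clusters 1 to 5, cluster 2 made up 23.7% of cells, from 20.8% (PdgfrbGFP) through 30.8% (Cspg4dsRED) to 31.7% (Acta2GFP). The causes of these shifts were not tested. The main limits were 8 cells in Cspg4dsRED, 1 plate per reporter strain, and clusters defined on the counts compared.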
